A study of Mus musculus with 6 samples.

Results

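The genes described here are the 3 D-type cyclins Ccnd1, Ccnd2 and Ccnd3, the kinase gene Cdk6, the inhibitor gene Cdkn1b and the paralogs Myc and Mycn. They were chosen by symbol, with earlier results of these data known, and all 7 were found among the 25595 genes of the count table. The table holds 26968 single cells of wild-type stembryos, which are aggregates of mouse embryonic stem cells (gastruloids) that grow into a structure resembling the posterior body axis after a pulse of the Wnt agonist Chiron during the third day. Every library came from the same 129/SVEV stem cell line with the same pulse, and each pooled many stembryos. Whole stembryos were collected at 96 h (2 libraries) and 120 h (2 libraries), and a further batch at 120 h was cut into an anterior and a posterior part (1 library each). Stembryos that did not elongate were discarded at 120 h, whereas collection up to 96 h was not selective, so the times differ in selection as well as in age. Nothing in the labels says that replicates came from separate cultures.

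D-type cyclins bind CDK4 or CDK6 and, by phosphorylating the retinoblastoma protein, release E2F factors and carry a cell from G1 into S phase. The product of Cdkn1b, p27Kip1, binds cyclin and kinase complexes and holds back the cycle. Myc and Mycn encode related transcription factors that pair with Max and drive ribosome production and growth; Mycn is known for its expression in the presomitic mesoderm (PSM) and neural tissue of the embryo, and Wnt signaling is a known inducer of both cyclin D1 and Myc. In the tail bud, neuromesodermal progenitors (NMPs) give rise to spinal cord and, through the PSM and the determination front, to somites.

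The authors deposited a fate and a cell-cycle phase (G1, S or G2M) for every cell. UMIs were summed here over the cells of a library, fate or phase, and a level is given as counts per 1000000 UMIs (CPM), after scaling each sum by the trimmed mean of M-values (TMM). Libraries held 2649 to 7887 cells and 24303317 to 117580506 UMIs, and their median UMIs per cell ran from 8723 (96 h replicate 2) to 22811 (96 h replicate 1). Replicate 1 was made with V3 and replicate 2 with V3.1 chemistry. The dissected parts were summed into 1 pool wherever replicates are compared, since each part holds only some of the fates. Of 26893 distinct barcodes, 75 were found in more than 1 library. The marker genes largely followed the fates: Tbx6 stood at 207 CPM in Early PSM, Tcf15 at 775 CPM in Somite A and Sox17 at 157 CPM in endoderm. There were exceptions. Mesp1 and Mesp2 were at 78.6 and 42.1 CPM in Late PSM against 28.2 and 29.0 CPM in the determination front, although the other 2 markers of that fate, Ripply2 (68.4 against 10.9 CPM) and Ripply1 (5.19 against 0.02 CPM), were higher there than in Late PSM. Tcf15 of the determination front (914 CPM) was as high as in the somites, Msgn1 was at 4.3 CPM at most in Early PSM, and Dppa3 was near 0 in every fate. Spinal cord A stood close to NMPs C in Pax6 (4.23 against 5.43 CPM), Sox1 (11.5 against 11.4) and Nkx1-2 (96.8 against 100). It was lower than NMPs C in T (26.8 against 89.8 CPM) and higher in Sox3 (46.1 against 31.1). In Spinal cord B, Pax6 was at 61.7 and Sox1 at 35.8 CPM. The NMP marker Cdx2 was highest in endoderm (394 CPM, against 357 in NMPs A). Endothelial and cardiac markers summed to at most 3.11 and 7.57 CPM in any fate.

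In the mm10 build, by GENCODE vM21, Ccnd1 lies on chromosome 7 (144929931 to 144939925, minus strand), Ccnd2 on chromosome 6 (127125162 to 127152193, minus) and Ccnd3 on chromosome 17 (47505051 to 47599691, plus). Cdk6 lies on chromosome 5 (3341485 to 3531008, plus), Cdkn1b on chromosome 6 (134920401 to 134925513, plus), Myc on chromosome 15 (61985391 to 61990374, plus) and Mycn on chromosome 12 (12936093 to 12941914, minus). Ccnd1 overlaps LTO1, Ccnd2 overlaps Gm43126 and 9330179D12Rik, Ccnd3 overlaps Bysl and Cdk6 overlaps Gm17590 and Gm42435, each on the opposite strand. The paper states that Cell Ranger was run with its default parameters and does not itself describe how strand was handled. Whether reads from these neighbours entered the counts was not tested.

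RefSeq promoters (GRCm38.p6, 250 bases before to 50 after a start) were at hand for 4 of the 7 genes. Those of Cdk6, Mycn and Cdkn1b are shown because, of the 21 pairs of these genes, Cdk6 and Mycn varied most alike over library and fate sums (r = 0.72), while Cdk6 and Cdkn1b varied most in opposite directions (r = -0.64). These are descriptions over 30 sums that share libraries and depth. Capitals mark an E-box, the palindrome CACGTG, or a TCF/LEF core, CTTTGA, searched on both strands.
Cdk6, chr5:3343643-3343942, plus strand: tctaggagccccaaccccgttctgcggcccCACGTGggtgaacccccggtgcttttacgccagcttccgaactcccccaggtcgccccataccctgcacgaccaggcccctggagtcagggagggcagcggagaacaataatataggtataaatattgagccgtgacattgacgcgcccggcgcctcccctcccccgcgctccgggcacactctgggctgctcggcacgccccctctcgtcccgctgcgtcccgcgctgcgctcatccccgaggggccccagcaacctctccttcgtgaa
Mycn, chr12:12941787-12942086, minus strand: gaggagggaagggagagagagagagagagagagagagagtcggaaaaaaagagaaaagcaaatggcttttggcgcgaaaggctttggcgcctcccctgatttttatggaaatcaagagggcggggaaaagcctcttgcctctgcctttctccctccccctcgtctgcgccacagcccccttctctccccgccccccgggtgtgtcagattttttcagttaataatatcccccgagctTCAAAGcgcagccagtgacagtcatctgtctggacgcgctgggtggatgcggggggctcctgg
Cdkn1b, chr6:134920151-134920450, plus strand: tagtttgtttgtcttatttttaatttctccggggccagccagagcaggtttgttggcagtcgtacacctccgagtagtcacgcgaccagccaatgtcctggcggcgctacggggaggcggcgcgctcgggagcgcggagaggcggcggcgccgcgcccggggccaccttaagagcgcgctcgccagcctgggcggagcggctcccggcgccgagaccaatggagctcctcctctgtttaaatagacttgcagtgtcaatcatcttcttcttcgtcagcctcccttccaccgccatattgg
The Cdk6 window held 1 E-box, a motif found in 7.15% of the 32851 promoter windows of the same length, starting at position -220 from the gene's start. The Mycn window held 1 TCF/LEF core in reverse orientation at position -13, a motif found in 16.0% of windows. Positions count from the RefSeq start of each window, which for Cdk6 and Mycn lies inside the GENCODE gene interval given above. Neither set of letters was in the Cdkn1b window or in the windows of Ccnd3.

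Of the D-type cyclins, Ccnd1 was low in the somite fates and Ccnd2 high in Spinal cord B. At 120 h the level of Ccnd1 over the 3 pools was 331 ± 90.6 CPM (SD, n = 3) in Spinal cord B, 293 ± 31.6 in the determination front, 290 ± 60.6 in Spinal cord A and 281 ± 69.5 in NMPs C, and these 4 neighbours overlapped. Late PSM followed at 173 ± 34.3 CPM, Somite A at 101 ± 22.6 and Somite B at 67.8 ± 22.1, and from NMPs C on each fate was above the next in 3 of 3 pools. Ccnd2 was highest in Spinal cord B, with 326 CPM in whole replicate 1, 1159 in whole replicate 2 and 710 in the dissected pool, a 3.55-fold range. In the 6 other fates its mean lay between 160 and 336 CPM, lowest in the determination front (160 ± 44.7) and the 2 somite fates. Ccnd3 was flatter, from 90.5 ± 26.8 CPM in Late PSM to 143 ± 38.4 in Spinal cord A.

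Cdk6 was lowest in the somite fates, Mycn was low there and in Spinal cord B, and Cdkn1b was high in the somite fates and the determination front. Cdk6 was at 50.1 ± 4.1 CPM in NMPs C, 46.5 ± 4.9 in Late PSM, 24.7 ± 0.4 in the determination front and 11.1 ± 1.8 and 10.6 ± 4.9 in Somite A and B. Mycn was at its highest mean in the determination front (84.9 ± 10.5 CPM) and Late PSM (78.2 ± 13.1), then NMPs C (56.8 ± 5.0), and lowest in Somite B (11.1 ± 5.7), with Somite A (15.7 to 38.0) and Spinal cord B (21.4 to 27.6) overlapping. Cdkn1b ran from 11.1 ± 3.6 CPM in NMPs C to 22.5 ± 7.5 in Somite B, and Somite A (15.1 to 23.8) and the determination front (12.5 to 28.3) overlapped with Somite B. Myc showed no order that held between pools: its fate means lay between 16.0 and 23.6 CPM, while a single fate ranged up to 4.50-fold between pools.

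**Figure D1:**
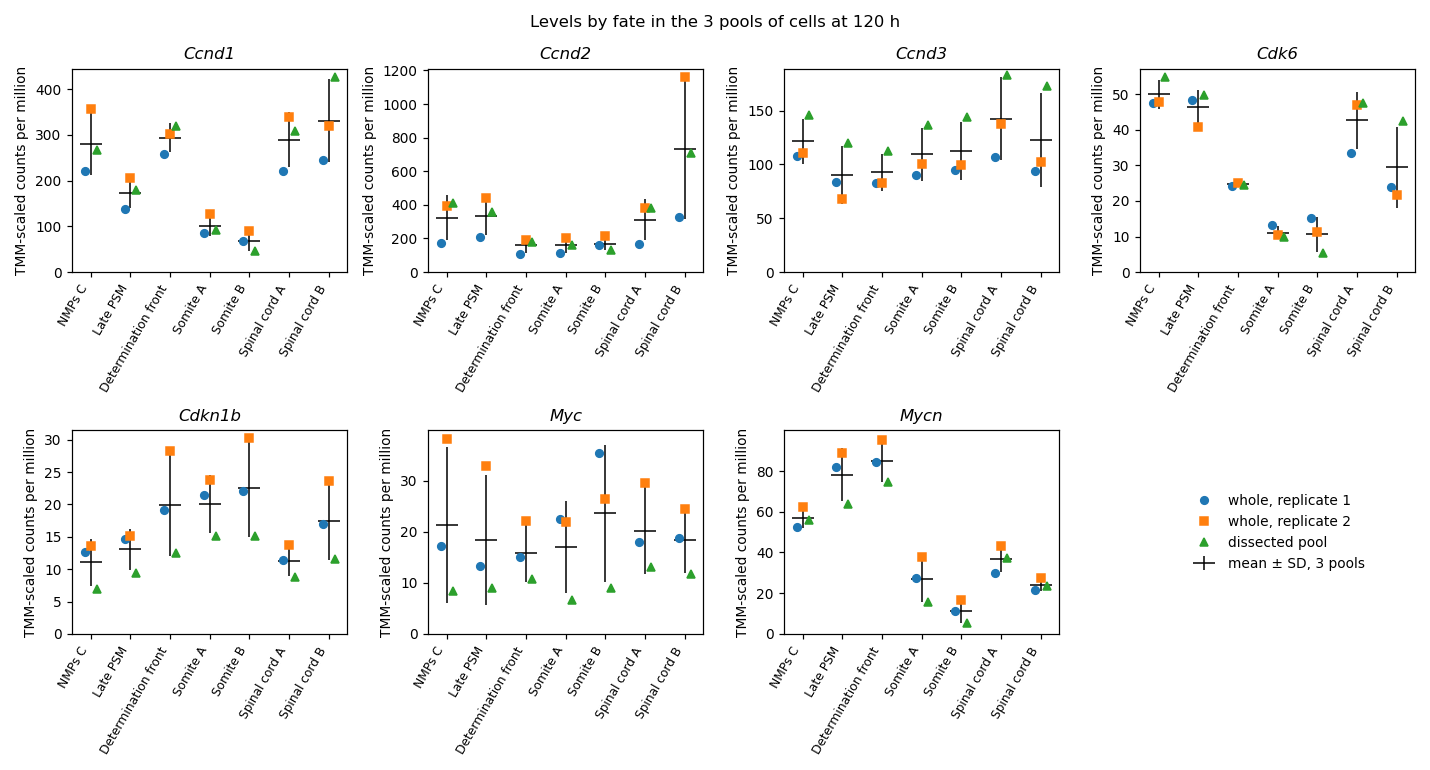
TMM-scaled CPM of each gene (vertical axis) in the 7 fates with 3 pools at 120 h (horizontal axis), 1 point per pool, with the mean and SD over pools in black. Cdk6 is low in both somite fates, Mycn in these and in Spinal cord B, and Ccnd2 reaches 1159 CPM in Spinal cord B of whole replicate 2. The dissected pool has the lowest Myc in all 7 fates.

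The pools differed in level in a way that repeated across fates. Whole replicate 1 had the lowest Ccnd1, Ccnd2 and Ccnd3 in 6 of 7 fates each. The dissected pool had the lowest Myc and Cdkn1b and the highest Ccnd3 in 7 of 7 fates, and whole replicate 2 had the highest Mycn and Cdkn1b in 7 of 7. Batch, chemistry, selection and handling cannot be told apart here, and every comparison of fates or phases below was therefore made within pools.

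The makeup of the D-type cyclin UMIs shifted between fates as well. Such a share compares UMIs captured, which do not scale with transcript length, and the same gene is compared between fates. Ccnd1 gave 54.0% ± 2.9 (SD, n = 3 pools) of the D-type cyclin UMIs in the determination front but 29.3% ± 2.2 in Late PSM and 19.2% ± 4.4 in Somite B. Ccnd2 gave 55.0% ± 6.5 in Late PSM, 58.8% ± 12.8 in Spinal cord B and 28.9% ± 4.6 in the determination front, and the ranges of its share in Late PSM (48.9% to 61.8%) and the determination front (24.2% to 33.3%) did not overlap. Ccnd3 gave 32.9% ± 10.3 in Somite B, 29.8% ± 5.9 in Somite A and 11.2% ± 4.2 in Spinal cord B. In the anterior part, which was nearly all somite, Ccnd3 held 36.5% of the cyclin UMIs (95% Wilson interval 35.8% to 37.2%, counting error only), against 18.1% (17.9% to 18.4%) in the posterior part.

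**Figure D2:**
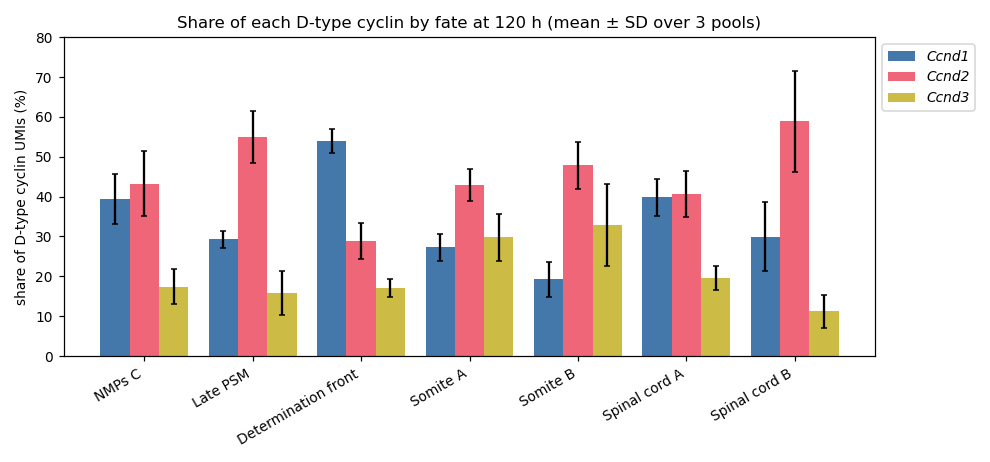
Share in percent of the summed Ccnd1, Ccnd2 and Ccnd3 UMIs (vertical axis) that each gene gave in 7 fates at 120 h (horizontal axis); bars are means and error bars SDs over 3 pools. Ccnd1 leads in the determination front at 54.0%, and Ccnd3 has its tallest bars in the 2 somite fates.

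The steps of differentiation at 120 h were then compared with edgeR's quasi-likelihood test on the 15 sums of 5 classes in 3 pools, with the pool as a block and Benjamini-Hochberg adjustment over 14444 genes. The authors formed the fates by clustering these same cells on expression, so p-values between fates are too small, and they rank the differences rather than test the fates. From NMP to PSM, 16.2% of all genes tested passed an adjusted p of 0.05, and 3 of the 7 genes did. Ccnd1 was at 221, 355 and 273 CPM in the NMPs of whole replicate 1, whole replicate 2 and the dissected pool, and at 137, 194 and 183 CPM in the PSM of the same pools, so it was lower in 3 of 3 pools with no overlap. Its log2 difference was -0.71 ± 0.13 (SE, adjusted p = 0.00075). Ccnd3 was lower too (-0.40 ± 0.09, adjusted p = 0.0041), though without whole replicate 2 it was -0.32 with an adjusted p of 0.072. Cdkn1b was higher (0.36 ± 0.12, adjusted p = 0.044) but lost its call when any pool was left out (0.30 to 0.47, adjusted p 0.12 to 0.27).

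From PSM to determination front Ccnd1 and Ccnd2 moved in opposite directions, while Ccnd3 was at 0.0015 ± 0.093 (adjusted p = 0.998). Of all genes 15.2% passed, and of the 7 genes 4 did. Ccnd1 stood at 260, 297 and 329 CPM in the determination front of whole replicate 1, whole replicate 2 and the dissected pool, all above the PSM values, and rose by 0.81 ± 0.13 on the log2 scale (adjusted p = 0.00028). Ccnd2 stood at 110, 189 and 184 CPM there, against 211, 413 and 369 CPM in the PSM, and changed by -1.01 ± 0.18 (adjusted p = 0.00084). Each pool thus had more Ccnd1 and less Ccnd2 in the determination front than in its own PSM. Cdk6 changed by -0.98 ± 0.21 (adjusted p = 0.0032), with 24.5 to 25.3 CPM against 40.4 to 52.3 CPM. Cdkn1b rose by 0.43 ± 0.12 (adjusted p = 0.02), a call lost when any pool was left out (0.39 to 0.48, adjusted p 0.075 to 0.12).

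From determination front to somite, 35.1% of all genes passed, and Ccnd1, Cdk6, Mycn and Ccnd3 did. Ccnd1 stood at 79.1, 119 and 71.0 CPM in the somites of whole replicate 1, whole replicate 2 and the dissected pool, a log2 difference of -1.77 ± 0.13 (adjusted p = 4.7e-08). Mycn stood at 22.2, 33.6 and 10.9 CPM in somites against 85.2, 93.8 and 76.7 CPM in the determination front (-2.11 ± 0.22, adjusted p = 2.3e-06). Cdk6 fell again (-1.24 ± 0.21, adjusted p = 0.00031), from 24.8 ± 0.4 to 10.6 ± 3.0 CPM. In all 3 genes the groups did not overlap. Ccnd2, low already, differed by 0.02 ± 0.18 (adjusted p = 0.96). Ccnd3 rose by 0.24 ± 0.09 (adjusted p = 0.042), a call lost without any 1 pool (0.19 to 0.28, adjusted p 0.067 to 0.12). For this step and the 2 before it, that of Cdk6 included, fewer cells with a gene on and less RNA per cell cannot be told apart in sums.

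Toward the spinal cord the pattern differed. Of all genes 7.66% passed between spinal cord and NMP, and of the 7 genes 3 did: Ccnd2 (0.71 ± 0.17, adjusted p = 0.016), Cdkn1b (0.43 ± 0.10, adjusted p = 0.017) and Mycn (-0.83 ± 0.21, adjusted p = 0.02). Mycn was at 24.7 to 34.9 CPM in spinal cord and 52.2 to 62.4 CPM in NMPs, and the groups did not overlap. Ccnd2 was at 268, 915 and 486 CPM in the spinal cord of whole replicate 1, whole replicate 2 and the dissected pool, against 170, 390 and 420 CPM in the NMPs. The Ccnd2 difference lay in Spinal cord B: Spinal cord A alone had 169, 382 and 381 CPM against 170, 391 and 411 CPM in NMPs C, lower in 3 of 3 pools. Cdkn1b was at 11.3 ± 2.4 CPM in Spinal cord A and 17.4 ± 6.0 in Spinal cord B, against 11.1 ± 3.6 in NMPs C. None of the 3 calls held without whole replicate 2, where Ccnd2 was 0.40 (adjusted p = 0.33), Cdkn1b 0.33 (adjusted p = 0.20) and Mycn -0.80 (adjusted p = 0.13). Without whole replicate 1, Mycn (-0.77, adjusted p = 0.12) and Cdkn1b (0.55, adjusted p = 0.055) lost theirs too.

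Between spinal cord and somite, 46.5% of all genes passed and 6 of the 7 genes did, Myc being the exception (0.12 ± 0.23, adjusted p = 0.72). Ccnd1 (1.79 ± 0.13, adjusted p = 8.0e-09), Ccnd2 (1.65 ± 0.18, adjusted p = 9.9e-07) and Cdk6 (1.81 ± 0.20, adjusted p = 1.3e-06) were higher in spinal cord in 3 of 3 pools with no overlap. Cdkn1b was lower in 3 of 3 pools (-0.49 ± 0.10, adjusted p = 0.00052). Mycn was higher by 0.70 ± 0.22 (adjusted p = 0.016) but in 2 of 3 pools, and without the dissected pool its difference was 0.08 (adjusted p = 0.59). Ccnd3 was higher by 0.25 ± 0.08 (adjusted p = 0.02), which without whole replicate 2 was 0.25 (adjusted p = 0.064) and without the dissected pool 0.16 (adjusted p = 0.12).

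**Figure D3:**
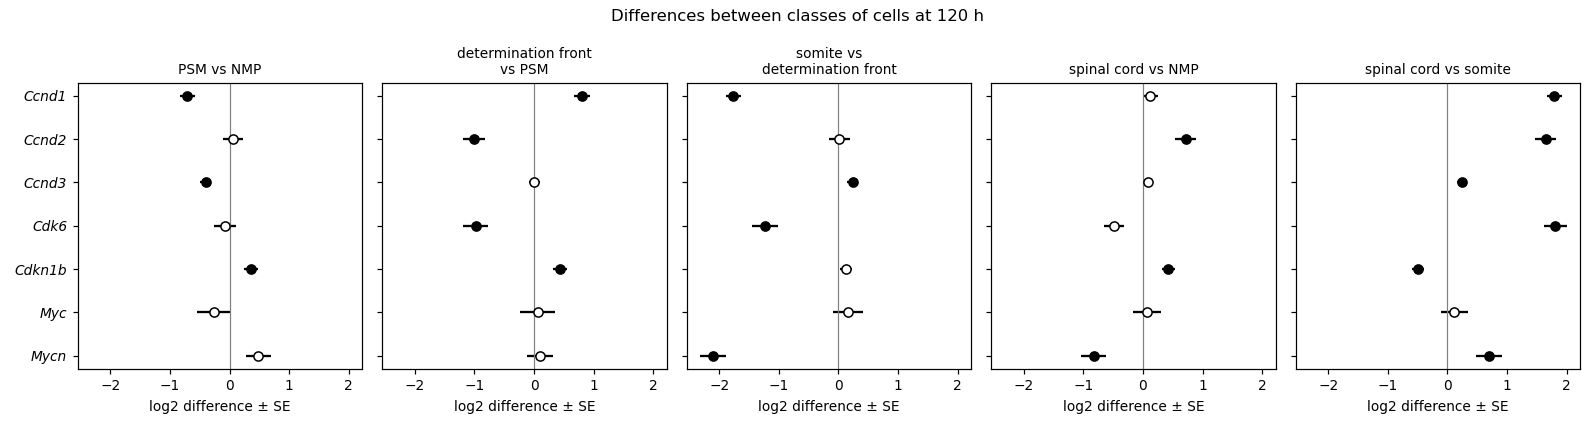
Log2 difference (horizontal axis) with its SE for the 7 genes (vertical axis) in the 5 class comparisons at 120 h; filled points passed an adjusted p of 0.05. Ccnd1 and Ccnd2 lie on opposite sides of 0 between determination front and PSM, and the points of Mycn, Ccnd1 and Cdk6 for somite against determination front are the 3 lowest of that panel.

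Genes of the same pathway, from 4 lists of textbook members, were read in the same fits. The lists were chosen with earlier results of these data known, so their counts are descriptions. Of 20 Myc target genes, mostly of ribosome production, 19 were lower in somites than in the determination front, where 35.1% of all genes passed, with a median of -0.52 against 0.02 over all genes. They included Srm, the spermidine synthase gene (-0.98 ± 0.14, adjusted p = 3.7e-05), Ddx21, a helicase gene of ribosomal RNA processing (-0.84 ± 0.07, adjusted p = 3.2e-07), and Rrs1 (-0.77 ± 0.11, adjusted p = 3.8e-05). In spinal cord against somite 18 of the 20 were higher, where 46.5% of all genes passed, with a median of 0.47 against 0.01 over all genes. In the 3 other class comparisons 1 or 2 of them passed. Of 11 partners in the Myc network, 10 were tested: Mycl, the third Myc paralog, was lower in PSM than in NMP (-1.19 ± 0.09, adjusted p = 7.9e-08), lower again in the determination front than in PSM (-1.30 ± 0.11, adjusted p = 6.3e-07) and higher in spinal cord than in somite (2.51 ± 0.08, adjusted p = 5.1e-12). In PSM against NMP 2 of the 10 partners were higher and 1 lower, where 16.2% of all genes passed. In determination front against PSM 1 was lower (15.2%). In spinal cord against somite 1, Mycl, was higher and 4 were lower (46.5%). Mxd4, whose product competes with Myc for Max, was higher in somite than in the determination front (0.88 ± 0.11, adjusted p = 1.3e-05), and Max was lower (-0.55 ± 0.09, adjusted p = 0.00019). In that step 3 of the 10 partners were higher and 1 lower, where 35.1% of all genes passed. Of 21 genes of the G1/S engine, 8 were lower and 2 higher in it, beside 35.1% of all genes, among them the cyclin E gene Ccne2 (-0.71 ± 0.08, adjusted p = 5.0e-06) and E2f2 (1.32 ± 0.21, adjusted p = 0.00015). In determination front against PSM 5 of the 21 were higher and 1 lower (15.2% of all genes). In spinal cord against somite 6 were higher and 2 lower (46.5%). Of 6 further CDK inhibitors 5 were tested: Cdkn1c was higher in the determination front than in PSM (1.09 ± 0.18, adjusted p = 0.00029), and in somite against the determination front Cdkn2c (1.19 ± 0.43, adjusted p = 0.041) and Cdkn2d (0.47 ± 0.14, adjusted p = 0.013) were higher and Cdkn1a lower (-0.98 ± 0.29, adjusted p = 0.016).

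Cell-cycle phase was compared in the 5 pools. The phases were scored by the authors from cycle gene expression, the cells were not sorted, and none of the 7 genes is among the 97 genes of the standard scoring list. Genes that vary together with the scoring genes can still be favoured, since the phases come from expression in these same cells. The p-values between phases, here and within classes, can therefore be too small, and they rank the differences. In S against G1, where 18.8% of all genes passed, Mycn (-0.41 ± 0.05, adjusted p = 9.0e-07, lower in 5 of 5 pools) and Ccnd3 (0.11 ± 0.03, adjusted p = 0.012) passed. The Ccnd3 call was lost without 96 h replicate 1 (0.10, adjusted p = 0.064). In G2M against G1, where 29.3% passed, Cdkn1b was at 10.8, 10.7, 11.9, 11.3 and 8.70 CPM in the G1 cells of 96 h replicates 1 and 2, 120 h whole replicates 1 and 2 and the dissected pool, and at 14.9, 11.1, 20.8, 26.1 and 14.2 CPM in their G2M cells. It was higher in 5 of 5 pools, by 0.65 ± 0.08 on the log2 scale (adjusted p = 1.3e-06), least at 96 h replicate 2. Mycn (-0.23 ± 0.04, adjusted p = 0.00026) and Ccnd3 (-0.14 ± 0.03, adjusted p = 0.0009) were lower in 5 of 5 pools. Both contrasts join all fates, so shares of fates that differ between phases enter them. In the fits within classes, Mycn in G2M against G1 passed in somite alone. It was -0.12 in NMP (adjusted p = 0.065), -0.12 in PSM (adjusted p = 0.10) and -0.21 in spinal cord (adjusted p = 0.16). Relative levels are not amounts per cell: G2M cells held 1.30 ± 0.04 times the UMIs of G1 cells (SD, n = 5 pools). Per cell, Cdkn1b UMIs were 2.19 ± 0.64 times those of G1 cells, Mycn UMIs 1.16 ± 0.11 times and Ccnd3 UMIs 1.23 ± 0.08 times. So Mycn and Ccnd3 were lower in G2M as a share of all UMIs while their UMIs per cell were above those of G1 in every pool.

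Within classes the same contrast gave different sets. Within NMP (5 pools, 23.2% of all genes passing) Cdkn1b (0.48 ± 0.11, adjusted p = 0.0005) and Cdk6 (0.25 ± 0.06, adjusted p = 0.00065) were higher in G2M and Ccnd3 lower (-0.12 ± 0.04, adjusted p = 0.021). Without 96 h replicate 1 Cdk6 (0.18, adjusted p = 0.079) and Ccnd3 (-0.13, adjusted p = 0.063) no longer passed, and Ccnd3 did not without 96 h replicate 2 (-0.11, adjusted p = 0.072) or the dissected pool (-0.10, adjusted p = 0.13). Within PSM (4 pools, 20.3%) Cdkn1b (0.65 ± 0.12, adjusted p = 3.1e-05) was higher in 3 of 4 pools, with overlapping groups. Cdk6 (0.21 ± 0.07, adjusted p = 0.017) was higher in 4 of 4, and it did not pass without 96 h replicate 1 (0.18, adjusted p = 0.28) or the dissected pool (0.23, adjusted p = 0.086). The pool missing from this fit, for too few cells per phase, was 120 h whole replicate 2.

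Within somite (3 pools, 22.2%) all 7 genes passed, 6 lower in G2M and Cdkn1b higher. Ccnd1 was at 111, 163 and 82.4 CPM in G1 and 59.0, 89.8 and 59.7 CPM in G2M cells of whole replicate 1, whole replicate 2 and the dissected pool (-0.69 ± 0.06, adjusted p = 1.1e-12). Each pool moved down, although the groups overlapped since the pools differ in level. Ccnd2 (-0.44 ± 0.06, adjusted p = 2.1e-08), Ccnd3 (-0.24 ± 0.05, adjusted p = 0.00017) and Mycn (-0.55 ± 0.10, adjusted p = 2.9e-05) were also lower in 3 of 3 pools. Cdkn1b was at 12.5, 9.84 and 10.9 CPM in G1 and 27.6, 33.4 and 19.5 CPM in G2M cells (1.02 ± 0.11, adjusted p = 7.6e-10), with no overlap. The calls of Cdk6 (-0.48 ± 0.14, adjusted p = 0.0083) and Myc (-0.41 ± 0.11, adjusted p = 0.0057) were lost without whole replicate 1 (Cdk6 -0.47, adjusted p = 0.078; Myc -0.44, adjusted p = 0.07) and without the dissected pool (Cdk6 -0.33, adjusted p = 0.29; Myc -0.37, adjusted p = 0.056), and Cdk6 was lower in 2 of 3 pools.

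Within spinal cord (3 pools, 11.8%) Ccnd2 was at 209, 679 and 437 CPM in G1 and 297, 1070 and 479 CPM in G2M cells of whole replicate 1, whole replicate 2 and the dissected pool (0.39 ± 0.06, adjusted p = 1.3e-05). The share of Spinal cord B, the fate with the most Ccnd2, moved with it: in these pools it held 33 of 122, 94 of 188 and 317 of 1474 G1 cells, and 135 of 188, 224 of 299 and 420 of 1455 G2M cells. In Spinal cord A cells alone the Ccnd2 difference was -0.00 ± 0.06 (adjusted p = 1.00), and in Spinal cord B cells alone, with 2 pools of enough cells, it was 0.23 ± 0.05 (adjusted p = 0.0019). Without whole replicate 2 it was 0.27 (adjusted p = 0.066). Cdkn1b (0.46 ± 0.15, adjusted p = 0.032) and Ccnd3 (-0.20 ± 0.07, adjusted p = 0.041) passed as well, but both lost the call without whole replicate 1 (0.45, adjusted p = 0.059; -0.18, adjusted p = 0.06) or whole replicate 2 (0.32, adjusted p = 0.37; -0.17, adjusted p = 0.29), and Ccnd3 without the dissected pool (-0.26, adjusted p = 0.075).

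The difference between spinal cord and somite in this contrast was tested as an interaction, which 0.483% of all genes passed. Ccnd1 (0.72 ± 0.10, adjusted p = 3.2e-05) and Ccnd2 (0.87 ± 0.11, adjusted p = 9.1e-06) passed, and the other 5 did not, with Cdk6 at 0.56 ± 0.18 (adjusted p = 0.17) and Cdkn1b at -0.56 ± 0.21 (adjusted p = 0.34). With Spinal cord B and Somite A cells alone, a choice made after seeing the data, the values were 0.64 ± 0.11 for Ccnd1 (adjusted p = 0.00018) and 0.76 ± 0.10 for Ccnd2 (adjusted p = 1.7e-07). That fit had 10 sums, with Spinal cord B from whole replicate 2 and the dissected pool only. It left out Spinal cord A cells, in which Ccnd2 did not differ between the phases.

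**Figure D4:**
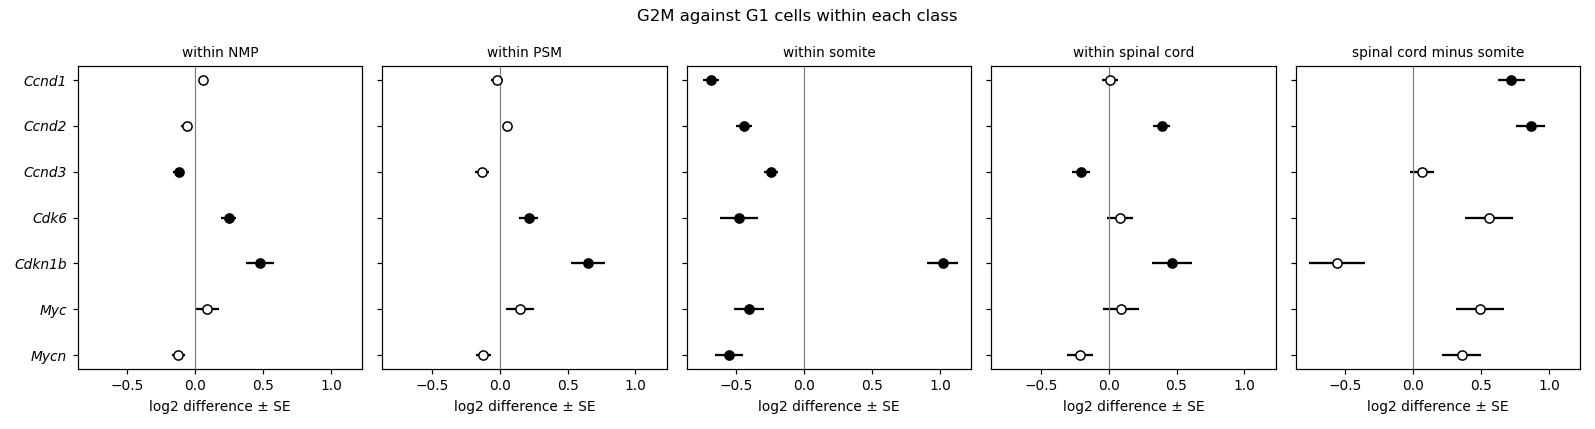
Log2 difference of G2M against G1 cells (horizontal axis) with its SE for the 7 genes (vertical axis) within 4 classes, and the difference of spinal cord and somite at right; filled points passed an adjusted p of 0.05. All 7 points are filled in the somite panel, and Cdkn1b lies to the right of 0 in each of the 4 classes.

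The lists bore on the same contrast, after leaving out genes used to score phase. Of 20 Myc target genes 15 were lower and 1 higher in G2M against G1, where 29.3% of all genes passed (median -0.12 against -0.00 over all genes). Within somite 13 were lower (22.2% of all genes passing in either direction), within NMP 11 (23.2%), within PSM 8 lower and 1 higher (20.3%) and within spinal cord 5 (11.8%). Of the inhibitors, Cdkn2d rose (0.64 ± 0.06, adjusted p = 9.7e-09) and Cdkn1a fell by 0.37 on the log2 scale (adjusted p = 4.1e-07). Mxd3, a Max partner gene, rose by 1.22 ± 0.11 (adjusted p = 1.6e-08). The cyclin E gene Ccne1 was higher in S (1.05 ± 0.06, adjusted p = 2.1e-11) and lower in G2M (-0.77 ± 0.07, adjusted p = 4.5e-09) than in G1.

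Time was compared in whole stembryos, 2 libraries each at 96 h and 120 h, and within NMP and PSM. The level of Ccnd2 in replicates 1 and 2 was 314 and 426 CPM at 96 h, and by 120 h it was 159 and 472 CPM, so that 120 h replicate 1 stood apart and the times overlapped. Cdk6 had 51.6 and 41.2 CPM at 96 h against 31.0 and 29.8 CPM at 120 h, and Cdkn1b had 12.0 and 10.3 CPM against 16.4 and 19.5 CPM, neither overlapping. By edgeR's quasi-likelihood test 0.845% of all genes passed, and 0 of the 7 genes did, with 2 at an unadjusted p under 0.05 and 0 passing by DESeq2. Cdk6 changed by -0.61 ± 0.16 (adjusted p = 0.18) and Cdkn1b by 0.68 ± 0.17 (adjusted p = 0.15). With the replicate number as a block, which stands for the shared batch, both passed, Cdk6 at -0.60 ± 0.10 (adjusted p = 0.0064) and Cdkn1b at 0.67 ± 0.14 (adjusted p = 0.017). In that fit 3088 of the 18114 genes tested passed, against 153 without the block, and 1 residual degree of freedom was left. The makeup of fates moved with time. NMPs A, NMPs B and Early PSM held most cells of their class at 96 h, and NMPs C and Late PSM at 120 h. The somite and spinal cord fates were those of 120 h. The 96 h libraries differed in NMP fate: 96 h replicate 1 held 2765 NMPs A cells but only 43 NMPs B cells. For 96 h replicate 2 these counts were 315 and 1632. This split lies inside the 96 h group of the NMP fit, so few genes passing there does not show unchanged levels. Within NMP, Cdk6 was 0.02 ± 0.17 (adjusted p = 0.98), and within PSM -0.08 ± 0.18 (adjusted p = 0.96). Within NMP 0.00642% of all genes passed, and within PSM 0.433%, and 0 of the 7 genes did in either, with 0 at an unadjusted p under 0.05 and 0 by DESeq2. The change with time in NMP minus that in PSM passed in 1.56% of all genes and in 0 of the 7, of which Myc had an unadjusted p under 0.05 (1.03 ± 0.30, adjusted p = 0.12). Of the 21 genes of the G1/S engine, 6 CDK inhibitors, 11 network partners and 20 Myc target genes, 0 passed by edgeR in whole stembryos, where 4, 3, 3 and 5 had an unadjusted p under 0.05, while 2, 2, 1 and 1 passed by DESeq2, and the median of the Myc target genes was -0.31 against 0.02 over all genes.

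**Figure D5:**
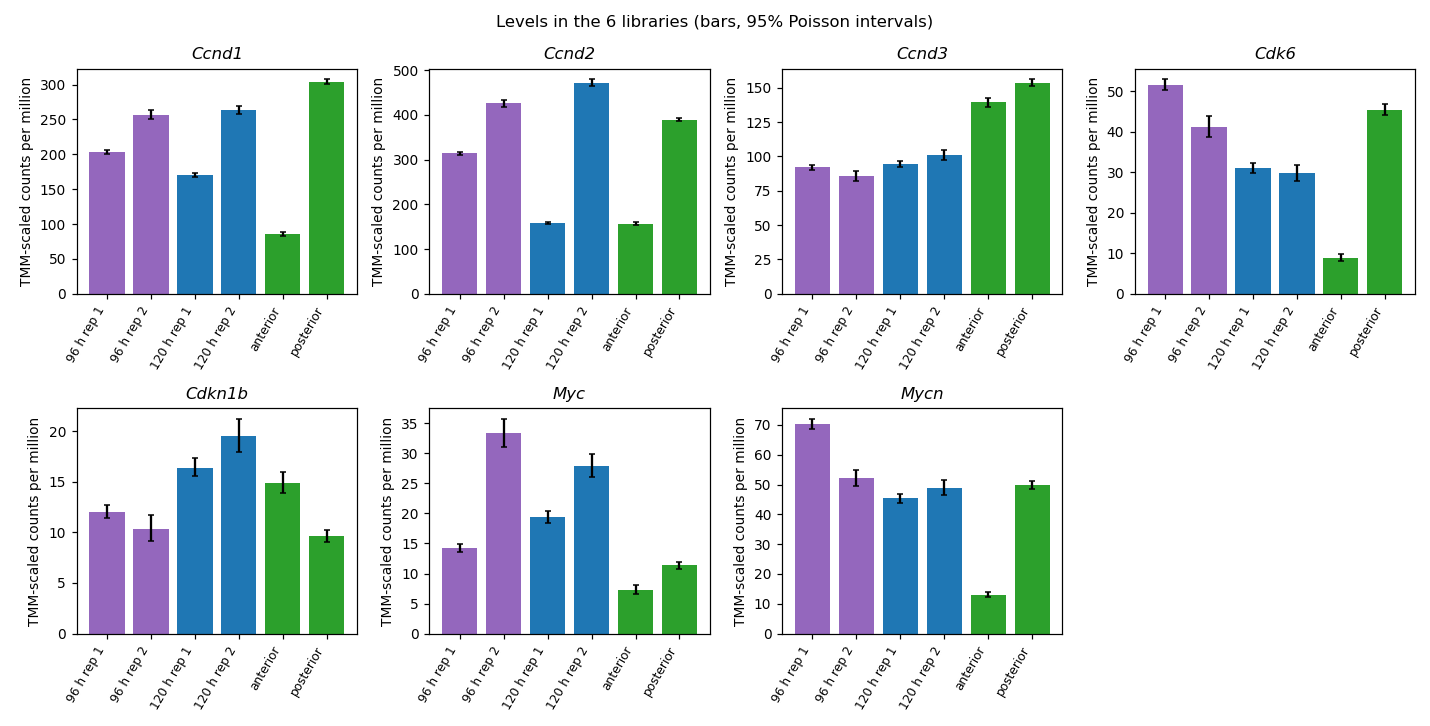
TMM-scaled CPM (vertical axis, from 0) of each gene in the 6 libraries (horizontal axis), with 95% Poisson intervals for counting error. Cdk6 is lower and Cdkn1b higher in both 120 h whole libraries than at 96 h, and the anterior part has less Ccnd1, Ccnd2, Cdk6 and Mycn than the posterior part.

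Anterior and posterior parts, with 1 library each, allow no test, and the intervals cover counting error only. Ccnd1 was at 85.4 CPM (95% Poisson interval 82.9 to 87.9) in the anterior and 304 CPM (301 to 308) in the posterior part. Cdk6 was at 8.86 CPM (8.08 to 9.70) against 45.5 (44.2 to 46.8), and Mycn at 13.1 (12.1 to 14.1) against 49.9 (48.5 to 51.2). Cdkn1b was at 14.9 (13.8 to 15.9) in the anterior and 9.65 (9.08 to 10.3) in the posterior part. The parts differ in fate: the anterior held 1881 cells of Somite A, 1757 of Somite B and 268 of the determination front among its 3944. In the determination front, found in both, Ccnd1 was at 273 CPM (257 to 289) in the anterior and 323 CPM (315 to 332) in the posterior part, and Mycn at 45.6 (39.5 to 52.5) and 80.2 (75.8 to 84.7). In Somite A, with 68 posterior cells, Ccnd1 was at 87.4 CPM (83.8 to 91.2) and 224 CPM (192 to 259).

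Genes with the most similar pattern over the 30 library and fate sums of at least 50 cells, on log2(CPM + 1), were found among the 5754 others (5755 for Cdkn1b and Myc) with a mean of at least 20 CPM. Those of Ccnd1 were the transporter genes Slc7a5 (r = 0.88) and Slc2a1 (0.86) and Agpat5 (0.86). Those of Cdk6 were Tnfrsf19 (0.95), the retinoic acid receptor gene Rarg (0.93) and Hmcn1 (0.92), and those of Mycn were Sall1, Gspt1 and Ptgfrn (0.87, 0.87 and 0.86). Ccnd2 came closest to Dek (0.83), Larp7 (0.80) and Pold3 (0.77), and Ccnd3 to the nuclease subunit gene Rnaseh2a, Mrpl13 and Nthl1 (0.90, 0.90 and 0.87). Cdkn1b came closest to Peli1 (0.89), Epb41 (0.87) and Zswim6 (0.87), and Myc to Aqr (0.88), the citrate synthase gene Cs (0.86) and Mapk1ip1l (0.85). Sums from the same library share its depth and batch, and the r values are descriptions.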

How the data were processed

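Single-cell RNA-seq (10x Genomics) was performed by the authors on 6 libraries of wild-type stembryos. Per the methods and the submitters' processing notes, reads were counted with Cell Ranger (6.0) on mm10 with a modified Ensembl annotation, and cells were filtered and clustered in Seurat (4.0.2), with cells of very low or high UMI totals and of high or very low mitochondrial percent removed by the authors. The upper UMI limit was the authors' step against doublets, and no doublet caller was run here. The deposited table holds raw UMI counts per gene and cell, and the authors' annotation gives fate, phase, batch and mitochondrial percent. Totals per cell equalled the annotation in all 26968 cells, and 0 deposited columns of per-sample values were left unused.

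Counts were summed per library or pool and class or phase (at least 50 cells) and tested with edgeR 4.0.16 (filterByExpr, TMM, quasi-likelihood F test, Benjamini-Hochberg over all genes tested, threshold 0.05) in R 4.3.3, and SEs were taken from the F statistic. Classes joined fates: NMP (NMPs A, B and C), PSM (Early and Late), somite (A and B) and spinal cord (A and B). DESeq2 1.42.0 was an alternative. The fits were tested on simulated data. Among whole stembryos the replicate numbers mark shared batches, while the dissected parts, though numbered 1, were another batch. Deviations of same-numbered whole libraries correlated (r = 0.53 in whole stembryos and NMP, 0.41 in PSM), so the replicate block is printed where it changes a call. Poisson and Wilson intervals (95%) cover counting error only. The members and lists were chosen with earlier results of these data known. Named genes were all 7 members, of each list up to 3 passing genes of largest change per comparison, and the 3 genes most similar to each member.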

Additional observations from a re-analysis of the deposited data

Results flagged for a closer look

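The change from G1 to G2M differed between spinal cord and somite for 2 of the 7 genes, by an interaction term in edgeR's quasi-likelihood test over 12 sums. For Ccnd1 the log2 difference in spinal cord minus that in somite was 0.72 ± 0.10 (adjusted p = 3.2e-05): in somite G2M cells were lower in 3 of 3 pools (-0.69), and in spinal cord the difference was 0.01 ± 0.06 (adjusted p = 0.95), with G2M higher in 1 of 3 pools. Leaving out 1 pool gave 0.61 to 0.83. For Ccnd2 it was 0.87 ± 0.11 (adjusted p = 9.1e-06), with G2M cells lower in 3 of 3 pools in somite (-0.44) and higher in 3 of 3 pools in spinal cord (0.39). Leaving out 1 pool gave 0.66 to 1.25. The mix of Spinal cord A and B changed between the phases, as described above, and the mix of Somite A and B changed less: Somite B was 25.8%, 16.0% and 43.3% of the G1 and 33.2%, 17.2% and 50.5% of the G2M somite cells in whole replicate 1, whole replicate 2 and the dissected pool. In Somite A and Somite B cells alone, Ccnd1 was -0.65 (adjusted p = 4.6e-09) and -0.53 (adjusted p = 0.00031), and Ccnd2 -0.50 (adjusted p = 1.7e-07) and -0.32 (adjusted p = 0.0029).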

How the results depend on the processing

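Of the 112 changes of a member in a comparison, 42 passed. Of these, 22 passed under every setting other than the removal of the pool block, and 18 were lost when some library or pool was left out. Without the pool block, 33 of the 40 tried were lost. Of the other 70, 59 passed under no setting, and 41 of those changed sign under at least 1 setting, so no direction is read from them. The cause of the losses was not tested.

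With the replicate block, 3088 genes passed in whole stembryos (153 without it), 1122 in NMP (1) and 828 in PSM (52), and 2 members passed in whole stembryos (Cdk6 and Cdkn1b). It changed no other call of a member in these 3 comparisons, the only ones where the block was fitted. With no low-count filter 1199, 1010 and 528 genes passed, with 414 for NMP minus PSM (231; 1 member, Myc) and 139 for the phase interaction (59). With DESeq2 1155, 446 and 169 passed. With cells over 1.5 times the mean UMI count left out, the phase interaction had 96. With no pool block, genes and members passing were 695 and 0 in PSM against NMP, 620 and 1 in determination front against PSM, 920 and 3 in somite against determination front, 76 and 0 in spinal cord against NMP, 2117 and 3 in spinal cord against somite, 39 and 0 in S against G1, 150 and 0 in G2M against G1, and within NMP, PSM, spinal cord and somite 123, 87, 40 and 104 with 0 members each. That fit leaves the differences between pools in the error. With the 2 classes alone 1756 passed in spinal cord against NMP (1107), and with 120 h pools alone 1957 genes and 1 member in S against G1. Spinal cord A cells alone gave 485 genes and 0 members, Spinal cord B cells 409 and 1, and Somite B cells 1174.

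With 1 library or pool left out, genes passing ran from 100 to 399 in whole stembryos, 0 to 292 in NMP, 23 to 545 in PSM and 44 to 417 for NMP minus PSM (0 to 1 members). They ran from 1332 to 1851 in PSM against NMP (1 to 3 members), 1216 to 1703 in determination front against PSM, 3128 to 4284 in somite against determination front, 473 to 1368 in spinal cord against NMP (0 to 4 members) and 4479 to 6151 in spinal cord against somite. They ran from 1859 to 2841 in S against G1 (1 to 2 members), 1197 to 2174 within PSM (1 to 3 members), 407 to 1324 within spinal cord (0 to 2 members), 1838 to 2517 within somite and 11 to 89 for the phase interaction, and within NMP 1 to 3 members passed. In NMP over time edgeR gave 0 genes without either 120 h library, with 993 and 1149 at an unadjusted p under 0.05 (replicates 1 and 2) and 446 passing by DESeq2 with all libraries. Where an arm was left with 1 library, it was assumed to vary like the other.

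Of the 53 changes that passed under at least 1 setting, 3 changed sign. The change of Ccnd2 over time in NMP minus PSM (-0.09) was 0.25 without 96 h replicate 2 and 0.04 without 120 h replicate 1, and it passed at -0.43 without 96 h replicate 1. Ccnd1 in G2M against G1 (-0.04) was 0.016 with no normalization factors, and Ccnd2 in G2M against G1 within spinal cord was -0.00016 in Spinal cord A cells alone. Myc in NMP minus PSM over time passed without 96 h replicate 2 (1.57). Depth limits the low genes: the sum of Somite B cells in whole replicate 2 held 15 UMIs of Cdk6, 22 of Mycn, 35 of Myc and 40 of Cdkn1b.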

Other observations

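Endoderm and the few Early PSM cells left at 120 h were found with over 50 cells in the dissected pool alone, and allow no comparison. In the 184 endoderm cells Ccnd1 was at 424 CPM (95% Poisson interval 400 to 450) and Myc at 2.29 CPM (0.839 to 4.97), from 6 UMIs. In the 58 Early PSM cells Ccnd2 was at 408 CPM and Cdk6 at 64.3 CPM (47.3 to 85.6).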
